A study of Mus musculus with 8 samples.

Results

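Irf1, Irf7, Zbp1, Ifi27l2a, Mx1, Mx2, Gbp4 and Gbp7, a set of interferon regulators and effectors, were followed in the ascending aorta of mice with too little fibrillin-1. They are 8 of the 1329 genes of a deposited FPKM table (fragments scaled to gene length and sequencing depth), and were found by matching its Ensembl identifiers to these symbols. There were 4 libraries from aortas of Fbn1mgR/mgR mice given DT-061, a small molecule that activates protein phosphatase 2A. Another 4 came from aortas of Fbn1mgR/mgR mice given the vehicle alone, a solution of N,N-dimethylacetamide, Kolliphor HS-15 and water. Oral dosing began at 5 weeks of age and lasted 4 weeks, with DT-061 at 5 mg/kg given 2 times daily and the vehicle on a matching schedule. Both groups carried the mgR alleles, which lower Fbn1 expression and make these mice a model of Marfan syndrome. No group had normal Fbn1, and the labels name neither the sex nor the strain background. No label states that each library came from its own mouse, so the spread between libraries may in part be technical.

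Interferons are secreted when cells sense foreign or misplaced nucleic acid, and by activated lymphocytes. Their receptors signal through JAK kinases to STAT proteins, which, with factors of the IRF family, switch on interferon-stimulated genes. The products of those genes sense nucleic acids, block viral replication, attack vacuoles that shelter microbes, and raise antigen presentation. In an aortic wall, smooth muscle cells, endothelium, fibroblasts and resident or recruited leukocytes can all respond.

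The table was made by its authors from genes significant between these very groups, so a p-value from it is not independent evidence, and 67.3% of its genes were lower with DT-061. The 8 libraries held 14100000 to 22200000 fragments, to 3 significant digits, as worked out from how low FPKM values step. DT-061 libraries held 14400000 to 15600000, vehicle library 4 held 14100000, and vehicle libraries 1 to 3 held 16200000 to 22200000. The part of depth in the results was not tested. Contractile smooth muscle markers, which define the tissue of the aortic wall, were abundant: the 13 in the table summed to 18307 to 27123 FPKM in DT-061 libraries and 9995 to 15862 FPKM in vehicle libraries. Vehicle library 4 stood apart from the other vehicle libraries in immune genes, and values with and without it are given below. It was singled out from these same values and was the lowest vehicle library for each of the 8 genes. Leaving it out therefore enlarges their falls by construction, so values without it are a description and lend no support.

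All 8 interferon genes fell with DT-061 (limma, adjusted p of 0.016 to 0.039 over the table). By the same rule, 65.0% of all genes in the table were called lower. The ratio of mean FPKM ran from 1.62-fold lower for Irf1 to 6.71-fold lower for Mx1. Their median change in log2(FPKM + 1) was -1.16, against -0.58 over the whole table. In 6 of the 8, every DT-061 library lay below every vehicle library, which held for 48.2% of all table genes; Irf7 and Mx2 were the exceptions. Vehicle library 1 was the highest of the 8 libraries and vehicle library 4 the lowest of the vehicle libraries for each of the 8 genes. Of the 894 table genes lower with DT-061, vehicle library 1 was the highest of the 8 libraries in 74.9%. Vehicle library 4 was the lowest of the vehicle libraries in 75.5% of them. In vehicle libraries 1 to 3, each of the 8 genes exceeded its value in every DT-061 library, as did 98.0% of those 894 genes. In bulk tissue, fewer cells of a type and less RNA per cell cannot be told apart.

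**Figure D1:**
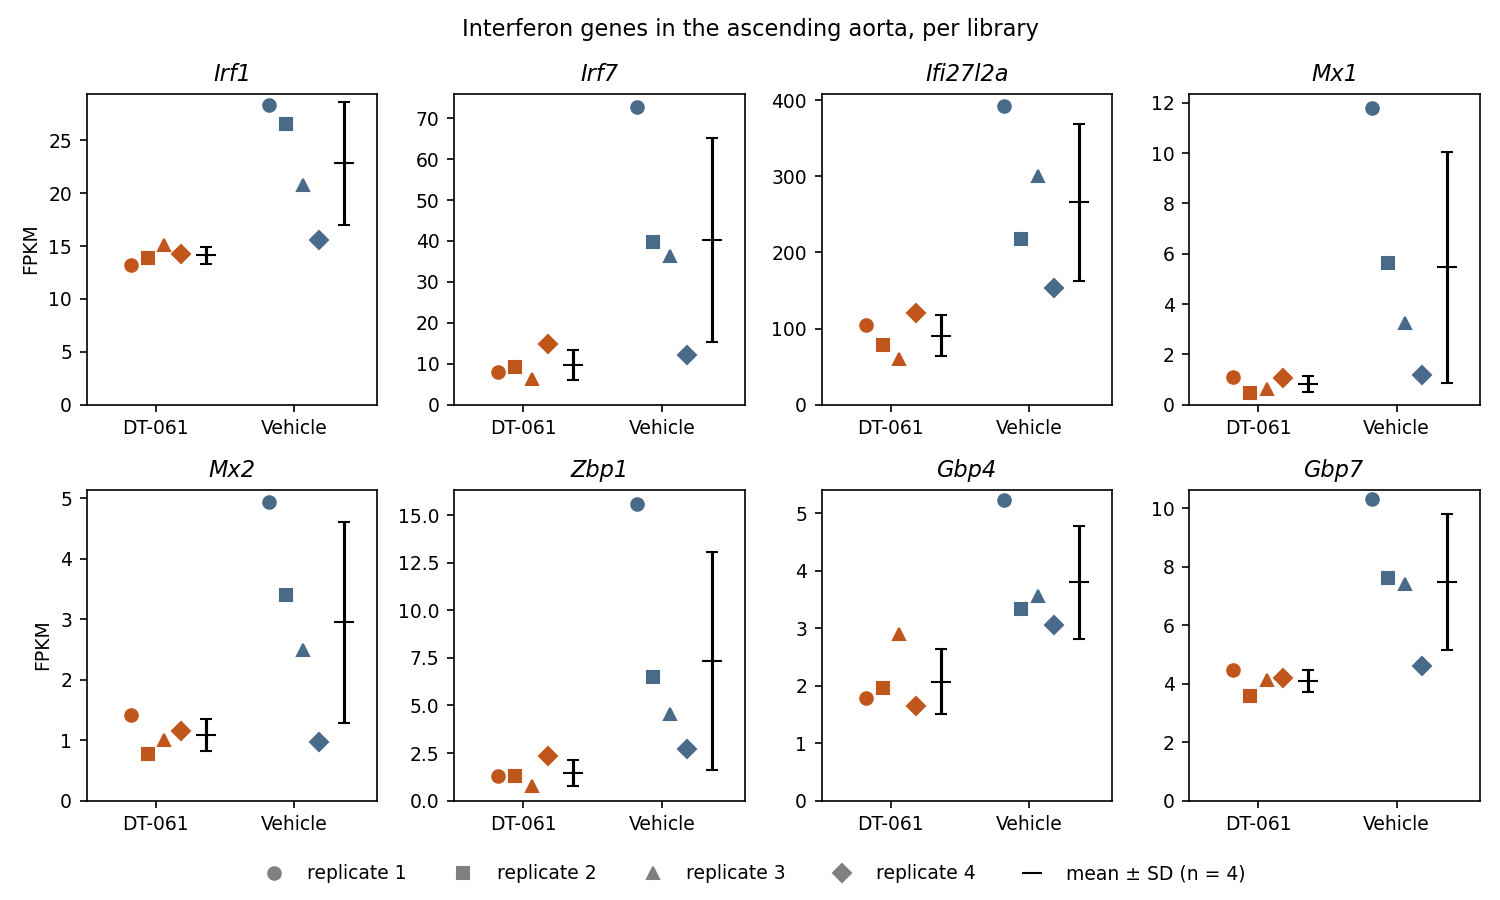
FPKM of the 8 interferon genes in each library, with DT-061 on the left and vehicle on the right of each panel; marker shapes give the replicate and black bars the mean ± SD (n = 4). Vehicle replicate 1 is the highest point in each panel, and vehicle replicate 4 lies nearest to the DT-061 libraries, within their range for Irf7 and Mx2.

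Irf7 and Irf1 are the transcription factors of the set. Irf7 drives production of type I interferon and is itself interferon-induced (Ensembl ENSMUSG00000025498, GRCm38 chromosome 7, 141262706 to 141266481, minus strand, protein coding). It stood at 8.06, 9.27, 6.31 and 14.8 FPKM in DT-061 libraries 1 to 4, against 72.7, 39.7, 36.4 and 12.1 FPKM in vehicle libraries 1 to 4. The groups overlapped because vehicle library 4 fell below DT-061 library 4. The mean was 9.60 ± 3.65 FPKM with DT-061 and 40.2 ± 24.9 FPKM with vehicle (SD, n = 4 each). Irf7 fell by 1.77 ± 0.50 on the log2(FPKM + 1) scale, meant by log2 scale from here on (SE; limma adjusted p = 0.018), and by 2.25 without vehicle library 4 (limma adjusted p = 0.0027). Its exons overlap those of Phrf1 on the opposite strand, and no source used here gives the strand setting of the counting. Reads from the overlapping stretch, whose length was not worked out, may therefore not be told apart.

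Irf1, a factor that is switched on by interferon gamma and that activates antigen presentation genes, was expressed more evenly (ENSMUSG00000018899, chromosome 11, 53770014 to 53778374, plus strand, protein coding). It had 13.2, 13.9, 15.1 and 14.3 FPKM in DT-061 libraries 1 to 4, against 28.4, 26.6, 20.8 and 15.6 FPKM in vehicle libraries 1 to 4. The DT-061 libraries stayed within 1.14-fold of each other, whereas the vehicle libraries spread 1.81-fold, and vehicle library 4 was just above the highest DT-061 library. Means were 14.1 ± 0.776 and 22.8 ± 5.79 FPKM (DT-061 and vehicle; SD, n = 4 each), and Irf1 fell by 0.62 ± 0.18 on the log2 scale (SE; limma adjusted p = 0.018). Exons of Gm17334, on the opposite strand, overlap this gene.

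Within a library, the ratio of Irf7 to Irf1 compares these factors without the library's own scale. It was 0.609, 0.666, 0.418 and 1.03 in DT-061 libraries 1 to 4, against 2.56, 1.49, 1.75 and 0.771 in vehicle libraries 1 to 4. Irf7 was thus the lower of the factors in 3 of the 4 DT-061 libraries and the higher in 3 of the 4 vehicle libraries. The change of Irf7 minus that of Irf1 was -1.15 ± 0.42 on the log2(FPKM + 1) scale (SE, n = 4 per group; two-sided exact permutation p = 0.0571, 0.0857 adjusted over 3 family pairs). The smallest p this design allows is 0.0286. The ratios of the groups overlapped, and the difference did not pass before or after adjustment. Without vehicle library 4, whose ratio was the vehicle ratio nearest to the DT-061 libraries, the difference was by construction larger, at -1.46 (exact permutation, adjusted p = 0.0429).

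Zbp1, a sensor of left-handed (Z-form) nucleic acid that can start necroptosis through RIPK3, was low with DT-061 and variable with vehicle (ENSMUSG00000027514, chromosome 2, 173206612 to 173218923, minus strand, protein coding). Its values were 1.32, 1.29, 0.746 and 2.37 FPKM in DT-061 libraries 1 to 4, against 15.6, 6.48, 4.54 and 2.73 FPKM in vehicle libraries 1 to 4. The groups did not overlap, but vehicle library 4 and DT-061 library 4 nearly met. Zbp1 averaged 1.43 ± 0.679 FPKM with DT-061 and 7.34 ± 5.73 FPKM with vehicle (SD, n = 4 each), 5.13-fold lower with DT-061. The fall of 1.59 ± 0.44 on the log2 scale (SE; limma adjusted p = 0.018) rests on about 38 to 123 fragments per DT-061 library and 136 to 892 per vehicle library.

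A list of cell death partners of Zbp1, in a loose sense that includes inflammasome genes, held 10 genes. Of these, 4 were in the table, and all 4 fell (median log2 change -0.92). Over the whole table, 65.0% of genes were called lower. Ripk3, the kinase that carries the necroptosis signal, had 3.05, 2.87, 1.12 and 2.25 FPKM in DT-061 libraries 1 to 4, against 6.07, 7.34, 6.24 and 5.34 FPKM in vehicle libraries 1 to 4. Unlike Zbp1, it was close to even across the vehicle libraries. It fell by 1.16 ± 0.22 (SE; limma adjusted p = 0.014), while the inflammatory caspase gene Casp4 fell by 1.02 and the inflammasome adaptor gene Pycard by 0.82 on the log2 scale. None of these 3 passed after the library rescalings described below: median rescaling gave Ripk3 -0.52, Casp4 -0.30 and Pycard -0.09, and quantile normalization gave -0.37, -0.42 and -0.21 (limma adjusted p of 0.073 to 0.68). The Pycard call was lost without DT-061 library 3 or without vehicle library 2 (limma adjusted p = 0.053 in each).

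Ifi27l2a, which encodes a small hydrophobic interferon-induced protein, was the most abundant of the 8 in both groups (ENSMUSG00000079017, chromosome 12, 103442167 to 103443680, minus strand, protein coding). It had 105, 77.8, 60.3 and 120 FPKM in DT-061 libraries 1 to 4, against 392, 217, 300 and 153 FPKM in vehicle libraries 1 to 4. The groups did not overlap, and the lowest vehicle library lay above the highest DT-061 library by less than the range within either group. Ifi27l2a fell by 1.5 ± 0.32 on the log2 scale (SE; limma adjusted p = 0.016), the smallest adjusted p of the 8. None of its 100-base transcript windows occur in a transcript of another gene.

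Mx1 and Mx2 encode dynamin-like GTPases that trap viral nucleoproteins; in mice, the Mx1 protein acts in the nucleus and Mx2 in the cytoplasm, and many inbred strains carry defective alleles. The genes are neighbours on chromosome 16, Mx1 at 97447035 to 97462907 on the minus strand (ENSMUSG00000000386, protein coding) and Mx2 at 97535308 to 97560900 on the plus strand (ENSMUSG00000023341, annotated in GENCODE release M21 as a polymorphic pseudogene). Only 0.929% of the 100-base windows of Mx1 transcripts occur in Mx2, and 1.13% of those of Mx2 in Mx1, so their reads can mostly be told apart. Mx1 had 1.11, 0.454, 0.631 and 1.06 FPKM in DT-061 libraries 1 to 4, against 11.8, 5.62, 3.23 and 1.17 FPKM in vehicle libraries 1 to 4. Its vehicle libraries spread 10.1-fold, the widest of the 8 genes, and vehicle library 4 was barely above DT-061 library 1. With 27 to 60 fragments per DT-061 library, the low Mx1 values carry a counting error that is not negligible. Mx1 averaged 0.815 ± 0.323 FPKM with DT-061 and 5.47 ± 4.62 FPKM with vehicle (SD, n = 4 each) and fell by 1.56 ± 0.50 (SE; limma adjusted p = 0.022); without vehicle library 2 the fall of 1.45 missed the threshold (limma adjusted p = 0.05). The added 1 FPKM makes this log2 change smaller than the 6.71-fold ratio of the means.

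Mx2 had 1.41, 0.775, 1.0 and 1.15 FPKM in DT-061 libraries 1 to 4, against 4.94, 3.40, 2.50 and 0.972 FPKM in vehicle libraries 1 to 4. Vehicle library 4 lay inside the DT-061 range, above 1 and below 3 of the DT-061 libraries. Mx2 fell by 0.82 ± 0.33 (SE; limma adjusted p = 0.039). This was the weakest call of the set: it was lost when any library but vehicle library 4 was left out (limma adjusted p of 0.058 to 0.092), and without vehicle library 4 the fall was 1.12 (limma adjusted p = 0.0051).

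The order of the Mx genes was opposite in the groups. The ratio of Mx2 to Mx1 was 1.27, 1.71, 1.59 and 1.08 in DT-061 libraries 1 to 4, against 0.417, 0.606, 0.773 and 0.83 in vehicle libraries 1 to 4. Mx2 exceeded Mx1 in 4 of 4 DT-061 libraries and in none of the vehicle libraries. The change of Mx2 minus that of Mx1 was 0.74 ± 0.22 on the log2(FPKM + 1) scale (SE, n = 4 per group; two-sided exact permutation p = 0.0286, the smallest this design allows, and 0.0857 adjusted over 3 pairs), so the difference did not pass after adjustment. Without vehicle library 4, whose ratio was the vehicle ratio nearest to the DT-061 libraries, the difference was by construction larger, at 0.87 (exact permutation, adjusted p = 0.0429).

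Gbp4 and Gbp7 encode guanylate-binding proteins, GTPases induced mainly by interferon gamma that assemble on pathogen vacuoles. Gbp7 lies on chromosome 3 at 142530342 to 142550149, plus strand (ENSMUSG00000040253, protein coding), and Gbp4 on chromosome 5 at 105115767 to 105139586, minus strand (ENSMUSG00000079363, protein coding). Gbp7 had 4.47, 3.57, 4.11 and 4.19 FPKM in DT-061 libraries 1 to 4, against 10.3, 7.60, 7.39 and 4.61 FPKM in vehicle libraries 1 to 4. The DT-061 libraries were tight, within 1.25-fold, and vehicle library 4 sat just above them. Gbp7 averaged 4.09 ± 0.374 FPKM with DT-061 and 7.47 ± 2.33 FPKM with vehicle (SD, n = 4 each), and fell by 0.70 ± 0.21 (SE; limma adjusted p = 0.020). Of its 5612 windows of 100 bases, 562 also occur in other genes, most of them in the processed pseudogene Gm43802, which overlaps it on the same strand, so part of its reads may have been assigned elsewhere.

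Gbp4 had 1.78, 1.96, 2.90 and 1.65 FPKM in DT-061 libraries 1 to 4, against 5.23, 3.34, 3.56 and 3.06 FPKM in vehicle libraries 1 to 4. Here DT-061 library 3 was the highest of its group and came close to vehicle library 4. Gbp4 averaged 2.07 ± 0.567 FPKM with DT-061 and 3.79 ± 0.977 FPKM with vehicle (SD, n = 4 each), and fell by 0.64 ± 0.20 (SE; limma adjusted p = 0.021). Its exons overlap those of Gbp8 and Gbp9 on the same strand, and 1.64% of its windows are shared with other Gbp genes, so its level is uncertain to the extent that reads were split. The ratio of Gbp7 to Gbp4 was 2.51, 1.82, 1.42 and 2.54 in DT-061 libraries 1 to 4, against 1.97, 2.28, 2.08 and 1.51 in vehicle libraries 1 to 4. These ranges overlapped widely, and the changes of Gbp7 and Gbp4 differed by -0.06 ± 0.18 (SE, n = 4 per group; two-sided exact permutation p = 0.857).

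**Figure D2:**
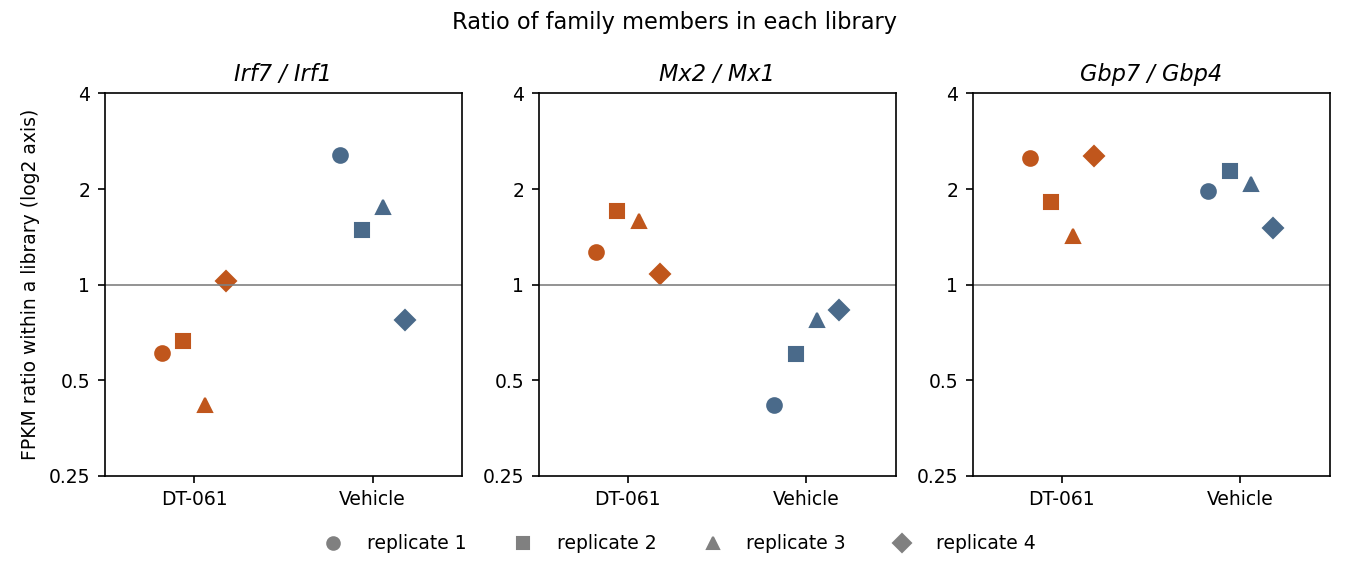
FPKM ratio of Irf7 to Irf1, Mx2 to Mx1 and Gbp7 to Gbp4 within each library on a log2 axis, DT-061 left and vehicle right; marker shapes give the replicate and the grey line equal levels. Mx2 to Mx1 lies above 1 in the 4 DT-061 libraries and below 1 in the 4 vehicle libraries, and Gbp7 to Gbp4 overlaps between the groups.

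The order of levels changed between the groups. With DT-061 it ran Ifi27l2a, Irf1, Irf7, Gbp7, Gbp4, Zbp1, Mx2 and Mx1. Ranges of neighbours overlapped for Irf1 and Irf7, for Gbp4 and Zbp1, for Zbp1 and Mx2, and for Mx2 and Mx1. With vehicle it ran Ifi27l2a, Irf7, Irf1, Gbp7, Zbp1, Mx1, Gbp4 and Mx2. There, only Ifi27l2a and Irf7, and Irf1 and Gbp7, were neighbours whose ranges stood apart.

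Ranks by size of fall depend on the scale. Of 73 interferon genes in the table (these 8 and the 65 others of the lists below), ranked from the largest fall on the log2(FPKM + 1) scale, Irf7 was at rank 6, Zbp1 at 11, Mx1 at 12 and Ifi27l2a at 15. Mx2 was at rank 53, Gbp7 at 59, Gbp4 at 62 and Irf1 at 64. The log2 change of Mx2 is lessened by the 1 FPKM added to a gene of about that level. By ratio of means Mx2 was 2.72-fold lower, next to Ifi27l2a at 2.93-fold, against 1.83-fold for Gbp4 and Gbp7 and 1.62-fold for Irf1. With a pseudocount of 0.1, the change of Mx2 was -1.19, between -1.51 for Ifi27l2a and -0.85 for Gbp4. On each scale Mx2 lay between Ifi27l2a and the Gbp genes, and its rank among the 73 was not worked out with another pseudocount. The change minus the median change of the table was -1.19 for Irf7, -1.01 for Zbp1, -0.98 for Mx1 and -0.92 for Ifi27l2a on the log2 scale. The same quantity was -0.24 for Mx2, -0.12 for Gbp7, -0.06 for Gbp4 and -0.04 for Irf1, so the last 3 changed about as much as the typical gene of the table.

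Other scalings ended the calls of Irf1, Mx2, Gbp4 and Gbp7, and quantile normalization also those of Zbp1 and Mx1. Rescaling each library to the same median over the table moved the median change of the table by 0.45, and quantile normalization by 0.63. Under the median rescaling, 4 of the 8 genes stayed lower and past the threshold, when 22.5% of table genes did: Irf7 at -0.98, Mx1 at -1.02, Zbp1 at -0.99 and Ifi27l2a at -0.66. Irf1 turned to 0.19, Gbp7 to 0.03 and Gbp4 to 0.00, and Mx2 lost its call at -0.27. With quantile normalization, 2 of the 8 were called lower, when 15.7% of table genes were: Irf7 at -1.55 and Ifi27l2a at -1.33. Zbp1 at -0.82, Mx1 at -0.73, Irf1 at -0.40 and Gbp7 at -0.05 did not pass, and Gbp4 turned to 0.23 and Mx2 to 0.09. Both scalings force the libraries to a common centre, which a preselected table may not share. In the table as deposited, 68.1% of calls were lower, against 40.8% with the median rescaling and 34.7% with quantile normalization.

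**Figure D3:**
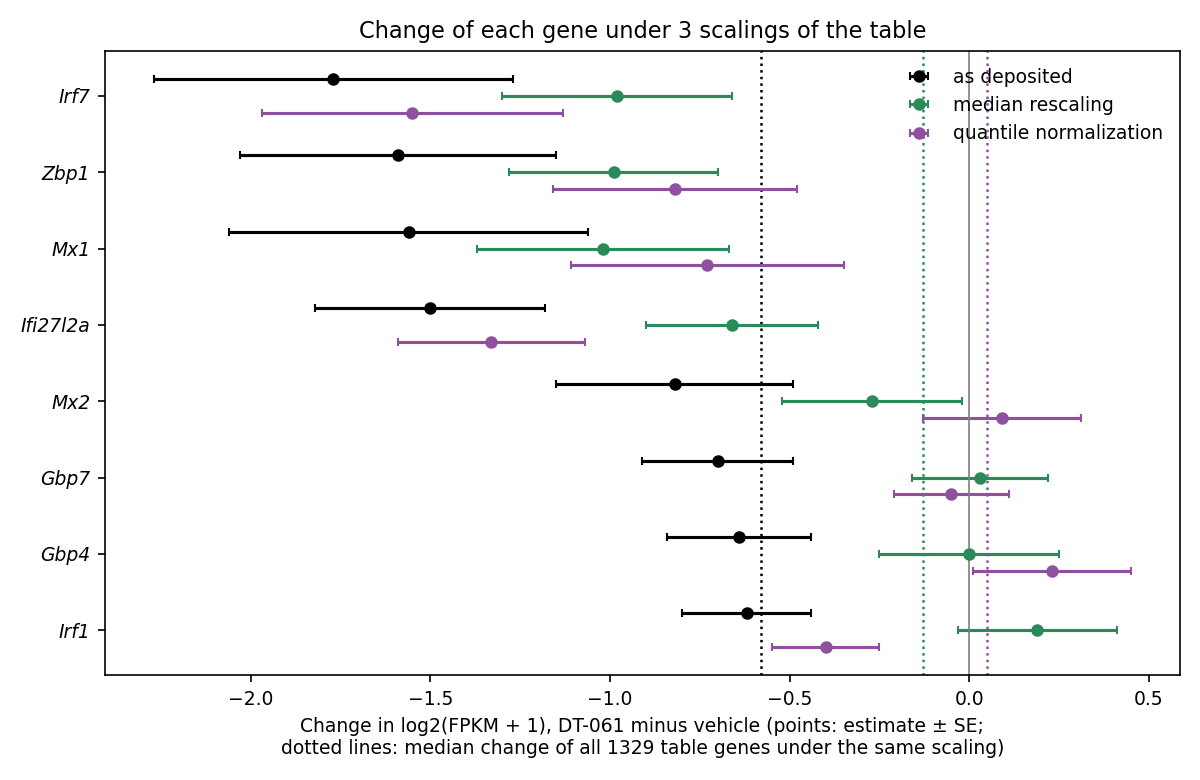
Change in log2(FPKM + 1), DT-061 minus vehicle, of each of the 8 genes (estimate ± SE) in the table as deposited, with median rescaling and with quantile normalization; dotted lines mark the median change of all table genes under the same scaling. Irf7, Zbp1, Mx1 and Ifi27l2a stay to the left of the dotted line under each scaling, and Irf1, Gbp4 and Gbp7 lie near 0 or change side with median rescaling.

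The rest of the interferon pathway, taken from 8 lists by role, had 65 of 174 listed genes in the table; the others were not analysed here. Of the 65, 64 fell and 1 did not pass, with a median log2 change of -1.10. The count was 41 without DT-061 library 3, 16 with median rescaling and 21 with quantile normalization. Over all table genes, 65.0% were called lower as deposited, 22.5% with median rescaling and 15.7% with quantile normalization. The share without DT-061 library 3 was not worked out. In 35 of the 65 (53.8%) the DT-061 libraries lay below all vehicle libraries, against 48.2% of all table genes. None of the 21 listed interferon genes themselves was in the table. Of 6 receptor genes only Ifnar1, a chain of the type I interferon receptor, was in it: it had 14.5 ± 1.02 FPKM with DT-061 and 19.8 ± 2.10 FPKM with vehicle (SD, n = 4 each) and fell by 0.42 ± 0.10 (SE; limma adjusted p = 0.016), but turned to 0.38 with the median rescaling.

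Feedback inhibitors of the signalling step fell as well. Usp18, a feedback inhibitor of the type I receptor, fell by 1.24 ± 0.38 (SE; limma adjusted p = 0.020), but did not pass with median rescaling (-0.51, limma adjusted p = 0.12) or quantile normalization (-0.66, limma adjusted p = 0.093). Socs3, a feedback inhibitor better known for IL-6 signalling, had 2.95, 7.34, 4.37 and 9.53 FPKM with DT-061, against 32.6, 22.1, 13.3 and 22.3 FPKM with vehicle. Its vehicle library 4 was not the lowest of the vehicle libraries, in contrast to that of each of the 8 genes. Among the other IRF factors, Irf5 and Irf8, both prominent in myeloid cells, were 2.19-fold and 4.65-fold lower, with log2 changes of -1.10 and -1.84. Irf5 did not pass without vehicle library 1 or without vehicle library 3 (limma adjusted p of 0.051 to 0.052), or with median rescaling (-0.31, limma adjusted p = 0.29).

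Nucleic acid sensing had 16 of 28 listed genes in the table, and all 16 fell (median log2 change -1.38), when 65.0% of table genes were called lower. Groups stood apart in 9 of these 16 (56.2%), near the 48.2% of all table genes. The p200 family genes Ifi211, Ifi205 and Ifi204 had the largest falls of that list among genes with a mean of at least 1 FPKM, at -1.90 ± 0.53, -1.83 ± 0.43 and -1.70 ± 0.55 (SE; limma adjusted p of 0.018, 0.016 and 0.022). In the other interferon-induced GTPases, 8 of the 9 in the table fell (median -0.90) and Gvin1, at -0.29, did not pass. Iigp1 and Igtp, immunity-related GTPases that act on parasite vacuoles, were 2.46-fold and 2.34-fold lower, and Tgtp2 was 2.93-fold lower with overlapping groups; its call was lost in 4 of the 8 fits that leave out a library (limma adjusted p of 0.053 to 0.063), those without library 2 or 3 of DT-061 and without library 1 or 3 of vehicle. Of the other antiviral effectors, 30 of the 65 listed were in the table and all 30 fell (median -1.06), against 65.0% of table genes. Groups stood apart in 12 of these 30, a smaller share than the 48.2% of all table genes. Ms4a4c, a membrane protein gene, had the largest fall, -2.11 ± 0.73 (SE; limma adjusted p = 0.026). It had 0.445, 0.334, 0.08 and 1.22 FPKM in DT-061 libraries 1 to 4, against 20.2, 7.63, 4.82 and 0.493 FPKM in vehicle libraries 1 to 4. Vehicle library 4 lay inside the DT-061 range, and the call was lost in 5 of the 8 fits that leave out a library (limma adjusted p of 0.052 to 0.061), those without library 1, 2 or 3 of DT-061 and without library 2 or 3 of vehicle. Phf11b and Epsti1 fell by 1.65 and 1.54 on the log2 scale, Epsti1 not without DT-061 library 3 or without vehicle library 3 (limma adjusted p of 0.051 to 0.052). Median rescaling ended the calls of Ifi204 (-1.0), Iigp1 (-0.38), Igtp (-0.33), Tgtp2 (-0.51) and Epsti1 (-0.91), and quantile normalization those of Tgtp2 (-0.30), Ms4a4c (-1.43) and Epsti1 (-0.90).

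**Figure D4:**
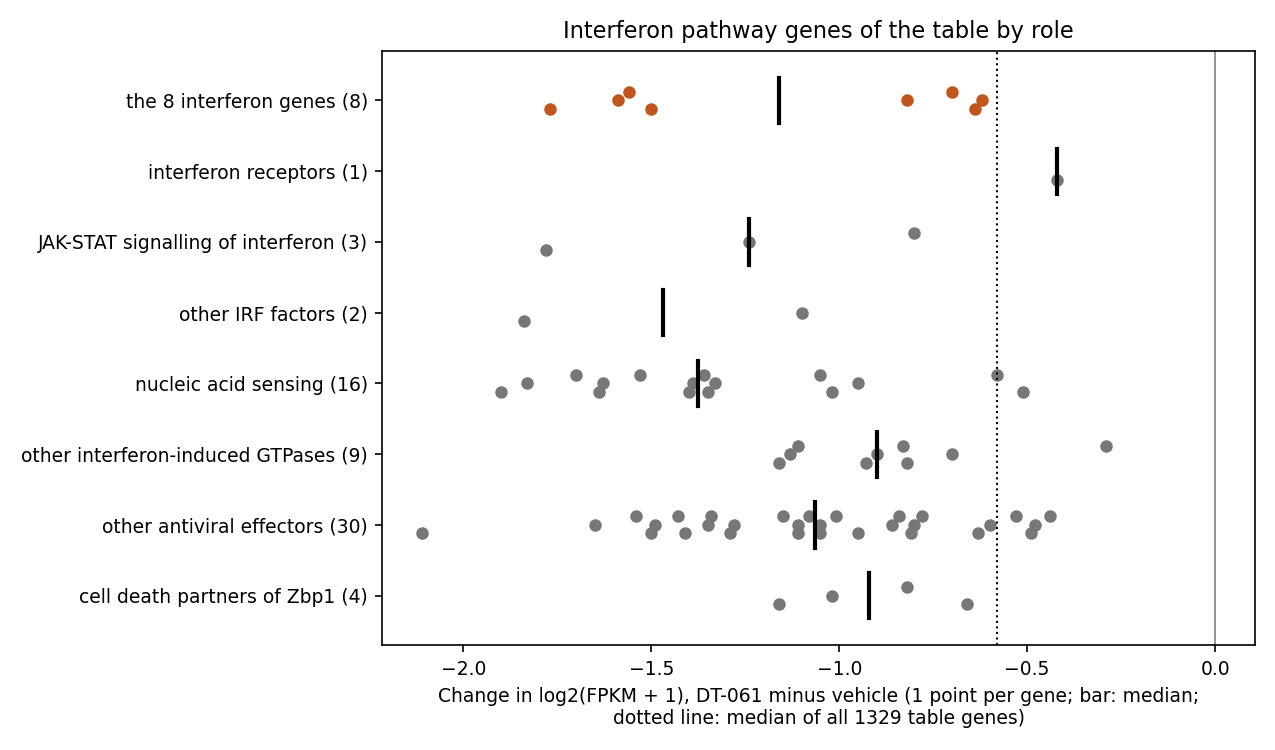
Change in log2(FPKM + 1), DT-061 minus vehicle, of each interferon pathway gene in the table, by role; points are genes, black bars list medians, the dotted line the median of all table genes (-0.58), and numbers in brackets the genes per list. Each point lies below 0, and the 8 interferon genes lie between -1.77 (Irf7) and -0.62 (Irf1); Mx2, at -0.82 here, is at -1.19 with a pseudocount of 0.1.

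Promoter windows of 250 bases before to 50 after the start were in the RefSeq table (build GRCm38.p6) for Irf1, Irf7 and Gbp7. They were searched on both strands for the interferon-stimulated response element bound by IRF factors, written GAAA, then NN, then GAAA, and for the gamma-activated site of interferon gamma responses, written TTCNNNGAA; the motifs did not overlap each other in these windows. Irf1 and Gbp7 are shown because they hold matches, in capitals, 5′ to 3′ on the gene's strand. With 0 as the first base of transcript, Irf1 had a gamma-activated site at -90 to -82. Gbp7 had gamma-activated sites at -106 to -98 and -87 to -79, and a response element at -53 to -44.
Irf1 (chr11:53769764-53770063, plus strand): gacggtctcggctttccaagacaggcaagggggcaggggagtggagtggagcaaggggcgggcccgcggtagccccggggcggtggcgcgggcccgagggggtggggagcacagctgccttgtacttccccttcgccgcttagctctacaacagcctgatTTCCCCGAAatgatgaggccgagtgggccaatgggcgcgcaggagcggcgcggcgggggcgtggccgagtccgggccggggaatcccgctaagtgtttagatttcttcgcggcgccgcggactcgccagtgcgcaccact
Gbp7 (chr3:142530086-142530385, plus strand): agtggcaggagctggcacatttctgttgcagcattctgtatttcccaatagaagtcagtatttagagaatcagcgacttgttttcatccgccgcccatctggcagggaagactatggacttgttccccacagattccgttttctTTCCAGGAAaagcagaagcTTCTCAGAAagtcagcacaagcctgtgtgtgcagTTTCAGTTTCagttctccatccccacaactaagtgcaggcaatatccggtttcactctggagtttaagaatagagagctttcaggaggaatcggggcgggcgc

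Neither motif was in the Irf7 window or in a further Irf1 window. Of all 27025 genes with a window, 3.99% held the response element and 9.55% the gamma-activated site. Among the 49 of the 65 other pathway genes with a window, 25 held the response element (51.0%) and 12 the gamma-activated site (24.5%), whereas 11.7% and 9.95% of the 633 genes of the table that fell and had a window did so. A match describes the letters and is not evidence of binding. Stretches of 30 bases around the response element are shown for 4 of the pathway genes named above that hold it (Ifi205 also does) and for Gbp3, another guanylate-binding protein gene on chromosome 3, which was chosen after its values were seen; capitals mark 1 element per stretch, read on either strand, and the Gbp3 stretch holds a further match that overlaps the one marked.
Gbp3 (chr3:142559989-142560018, plus strand): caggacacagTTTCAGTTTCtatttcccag
Igtp (chr11:58199512-58199541, plus strand): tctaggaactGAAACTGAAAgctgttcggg
Tgtp2 (chr11:49064263-49064292, minus strand): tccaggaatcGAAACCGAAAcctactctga
Ifi211 (chr1:173913064-173913093, minus strand): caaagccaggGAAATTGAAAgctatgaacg
Phf11b (chr14:59341361-59341390, minus strand): cacatttagaGAAAAAGAAActagaaacta
The 10 capital letters of Gbp3 and Gbp7 are the same, and those of Igtp are the same element on the other strand. Other pathway genes not shown hold this element as well.

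Immune cell markers moved with the 8 genes, and their part in the result was not tested. By the same rule as for the marker counts below, 65.0% of all table genes were called lower. The 20 T and NK cell markers in the table (of 32) summed to 4.75 to 13.4 FPKM in DT-061 libraries, against 38.5 to 113 FPKM in vehicle libraries 1 to 3 and 11.4 FPKM in vehicle library 4; 18 fell and 2 did not pass. The 5 of 26 monocyte and macrophage markers, all of which fell, summed to 6.21 to 27.6 FPKM with DT-061, against 79.3 to 154 FPKM in vehicle libraries 1 to 3 and 28.4 FPKM in vehicle library 4. In each of these lists, vehicle library 4 was at or near the DT-061 range, as it was for Irf7, Mx1 and Mx2. All 7 B and plasma cell markers in the table fell, and their sums ranged over 74.1 to 143 FPKM with DT-061 and 244 to 5647 FPKM with vehicle. All 7 dendritic cell markers (3.71 to 12.5 FPKM with DT-061 against 14.3 to 44.2 FPKM with vehicle) and all 3 neutrophil and mast cell markers (0.569 to 2.46 against 1.46 to 24.8 FPKM) fell as well. Klrk1, Eomes, S100a9 and Xcr1 were at 0 in at least 1 library. Leaving out a library ended the call of S100a9 in 7 of 8 fits, of S100a8 in 6, and of the T cell genes Trbc2 and Lck in 3 each. Quantile normalization ended those calls too, and that of Itgax (limma adjusted p of 0.056 to 0.21). The pseudocount of 0.1 also ended that of S100a9 (limma adjusted p = 0.079). The other named immune markers, Igha, Igkc, Mpeg1, Plac8 and Fscn1, kept their calls in these fits.

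Contractile smooth muscle markers moved in the opposite direction to the immune markers, and most of the other wall markers in the table fell. All 13 contractile smooth muscle markers in the table rose, with Myl9 0.98 and Tpm2 0.86 higher on the log2 scale. Of all 1329 table genes, 404 rose. Of 4 fibroblast markers 1 rose and 3 fell, with sums of 965 to 1164 FPKM with DT-061 and 877 to 1083 FPKM with vehicle. Most of each sum was Gsn, which rose (mean of 811 FPKM with DT-061 and 558 FPKM with vehicle). Lum (106 against 186 FPKM), Ly6a (120 against 239 FPKM) and Cthrc1 (6.7 against 31.9 FPKM) fell, though Ly6a did not pass with median rescaling (-0.13). The single endothelial marker in the table, Robo4, fell by 1.06 with overlapping groups, and did not pass with median rescaling (-0.51) or quantile normalization (-0.17). Both adipocyte markers in the table, Retn and Cfd, fell, with sums of 74.1 to 335 FPKM with DT-061 and 498 to 1417 FPKM with vehicle, and no heart muscle or red blood cell marker was in the table. The part of these cells in the interferon values was not tested.

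**Figure D5:**
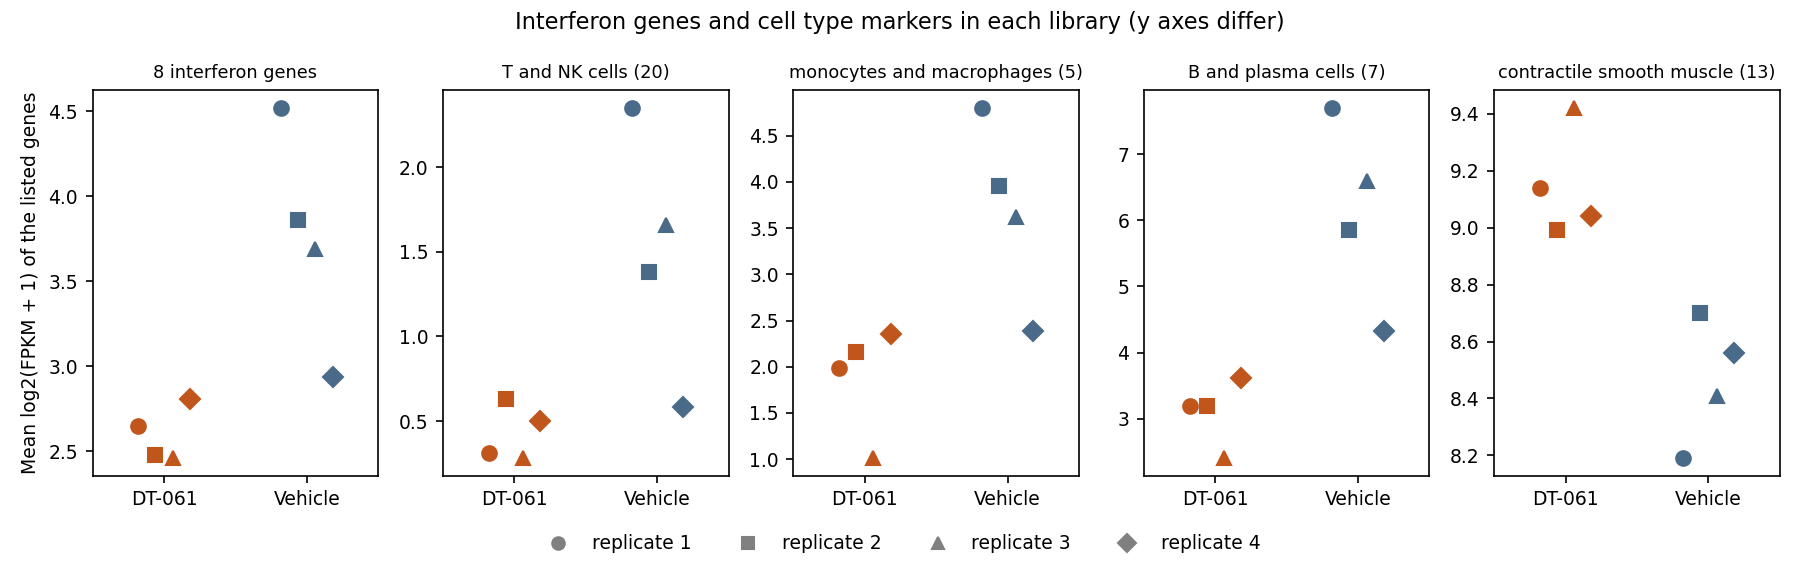
Mean log2(FPKM + 1) per library of the 8 interferon genes and of markers of T and NK cells, monocytes and macrophages, B and plasma cells and contractile smooth muscle, DT-061 left and vehicle right; marker shapes give the replicate, brackets the number of genes, and the y axes differ. The interferon mean is 2.46 to 2.81 with DT-061 and 2.94 to 4.52 with vehicle; vehicle replicate 4 is the lowest vehicle point in the interferon and the 3 immune panels and replicate 1 the highest.

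For each of the 8 genes, the table genes with the most similar profile over the 8 libraries were found. Likeness was the mean absolute difference of log2(FPKM + 1) centred on each gene's mean, among table genes with a mean of at least 1 FPKM; as the profiles share the group difference, it is a description only. Nearest to Irf7 were Cd72, Cyp4f18 and Fcgr4, at 0.140, 0.160 and 0.163 log2 units, against a median of 0.786 over the genes compared. Cd72 and Fcgr4 encode surface receptors of B cells and of myeloid cells. Nearest to Zbp1 were Phf11b (0.136), Oasl1 (0.161) and the myeloid kinase gene Fgr (0.170), and nearest to Mx1 were Oasl1 (0.12), Ifi206 (0.165) and an immunoglobulin variable gene, Igkv14-126 (0.169). Mx2 was closest to Cmpk2 (0.066), which is in the pathway lists, and the peptide transporter gene Tap1 was also near (0.138). Ifi27l2a was closest to Ccdc88b (0.117), the chemokine gene Cxcl9 (0.130) and the lymphoid kinase gene Jak3 (0.157).

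The 3 nearest genes of Irf1, Gbp7 and Gbp4 were all outside the pathway lists, as were those of Irf7 and Ifi27l2a. A gene outside these lists may still be induced by interferon. Irf1 was closest to Trim21, an antibody receptor and ubiquitin ligase gene, at 0.046 log2 units, then to Hmga1 (0.075) and Gsap (0.077), against a median of 0.453. Gbp7 was closest to Ugcg, Pak1 and Evl, at 0.075, 0.080 and 0.082. Gbp4 was closest to Dnajb9, a chaperone gene of the endoplasmic reticulum, at 0.093, then to H2-T22 (0.110) and Dna2 (0.112).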

How the data were processed

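Per the labels' protocols, 8 libraries of poly-T purified RNA were read in pairs (Illumina). The submitters' processing notes name mm10, featureCounts 1.5.0-p3, StringTie 1.3.3b and HISAT2 2.0.5, without their roles. The deposited values are FPKM, computed by the authors for genes they selected as significant between the groups; no source used here gives that rule, the total used for scaling or the strand setting. Symbols matched 1328 of 1329 identifiers. Positions, biotypes, exonic lengths and transcript windows came from GENCODE release M21 on GRCm38, the build of mm10, and promoters from RefSeq. Fragments per library were recovered from low FPKM values times exonic length, which were whole within 0.03 for 96.0% to 100.0% of 25 to 53 preselected values; fragments per gene are approximate, as exonic lengths may differ from the authors'.

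The test was limma 3.58.1 (trend and robust) in R 4.3.3 on log2(FPKM + 1) with treatment as the only term; p-values were adjusted over all 1329 genes (Benjamini-Hochberg, threshold 0.05), and the fit was tested on simulated data. A change is DT-061 minus vehicle in mean log2(FPKM + 1), and is too small for low genes; rose and fell are used past the threshold only. The 3 family pairs were compared by an exact permutation test of within-library differences. Named genes are the 8 genes, up to 3 per pathway list and 2 per marker list that changed most (mean of 1 FPKM or more), the 3 genes nearest to each of the 8, and others said to be chosen after their values were seen or given because a list's count is 5 or fewer, a gene did not pass or a marker was at 0. One named gene is not reported here. The genes, lists, tests and alternatives were chosen with earlier results of these data known. Alternatives were limma without trend and robust, a pseudocount of 0.1, leaving out genes with a mean under 1 FPKM, median rescaling, quantile normalization, the replicate number as a block, and leaving out libraries.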

Additional observations from a re-analysis of the deposited data

Results flagged for a closer look

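Dixon's test for a single far value was applied to 94 groups of 4 libraries, in which chance gives about 1 flag in 20 groups. In all, 4 groups were flagged, no more than that rate gives, and none was among the 16 groups of the 8 interferon genes. DT-061 library 3 was far below the other DT-061 libraries in 4 other genes, on the log2(FPKM + 1) scale: Irf5 at 2.60, Casp4 at 1.6, the macrophage gene Mpeg1 at 1.26 and the dendritic cell gene Itgax at 0.46.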

How the results depend on the processing

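The pseudocount of 0.1, the minimum mean FPKM of 1, limma without trend and robust, and leaving out DT-061 library 3 with vehicle library 4 kept all 8 interferon genes lower and past the threshold. For these settings the share of all table genes called lower was not worked out. With median rescaling 4 and with quantile normalization 2 of them, and 16 and 21 of the 65 other pathway genes (64 as deposited), were called lower. The shares of all table genes were 22.5% and 15.7% (65.0% as deposited). Median rescaling gave Irf1 0.19, Gbp7 0.03, Gbp4 0.00 and Mx2 -0.27; quantile normalization gave Irf1 -0.40, Mx1 -0.73, Zbp1 -0.82, Gbp7 -0.05, Mx2 0.09 and Gbp4 0.23. The cause was not tested. Also turned to higher were, with median rescaling, Ifnar1 (0.38), Trim21 (0.13), Hmga1 (0.21), Dnajb9 (0.15), H2-T22 (0.23), Ugcg (0.17) and Evl (0.17), and with quantile normalization Trim21 (0.09), Gsap (0.33), Dna2 (0.37) and Pak1 (0.13).

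Leaving out each library in turn left 6 to 8 of the 8 genes and 41 to 65 of the other pathway genes called lower. These fits have fewer samples, and the share of all table genes called lower in them was not worked out. Mx1 ranged from -1.99 to -1.13 (limma adjusted p = 0.05 without vehicle library 2) and Mx2 from -1.12 to -0.59. The pair differences ranged from -1.46 to -0.90 for Irf7 minus Irf1 and from 0.54 to 0.87 for Mx2 minus Mx1. For Gbp7 minus Gbp4 they ranged from -0.17 to 0.06, and the value was 0.04 with the pseudocount of 0.1 and 0.03 with median rescaling. As a replicate block, the replicate numbers left 6 of the 8 genes and 48 of the 65 called: Mx2 at -0.82 (limma adjusted p = 0.059) and Gbp4 at -0.64 (0.052) did not pass. The share of all table genes called lower with the block was not worked out either. No label says that a number marks shared animals or days. Deviations of same-numbered libraries correlated across genes at 0.18, -0.11, -0.05 and -0.47, which with 4 libraries per group cannot show or exclude a pairing. The numbers were not treated as pairs in the main test.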

Other observations

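DT-061 library 3 was the lowest of the 8 libraries in 53 of the 65 other pathway genes (81.5%) and in 628 of the 894 table genes lower with DT-061 (70.2%), but in 3 of the 8 interferon genes (Irf7, Ifi27l2a and Zbp1). In Irf1 and Gbp4 it was the highest DT-061 library. Vehicle library 1 was the highest of the 8 libraries in 64 of the 65 other pathway genes, and in 74.9% of the 894 lower genes.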
